A study of Medicago truncatula with 6 samples.

Results

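Transcript levels were described in mycorrhizal roots of the wild-type line R108 of Medicago truncatula, a small legume that forms both arbuscular mycorrhiza and root nodules. The R108 libraries are R108 replicates 1, 2 and 3, which are 3 of the 6 libraries of the series and were picked by their labels as wild type. The other 3 libraries come from another genotype and were not analysed here. Total RNA was taken from these roots with TRIzol and read on an Illumina NovaSeq instrument, per the labels' protocols. All libraries are mycorrhizal, so no level is set against roots without fungus. The labels give neither the fungal partner, the age of the plants nor the phosphate supply. They call the 3 libraries technical replicates and name no separate plants or pools, so the spread given below is a spread between these 3 libraries and not known to be one between plants. Their numbers are names and carry no order. Errors are SD over n = 3 libraries. There was no contrast within the group, so no test was run and every statement is a description of size.

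In an arbuscular mycorrhiza the fungus grows into inner cortical cells and branches there into an arbuscule, which the plant cell surrounds with a new membrane. Across that membrane the plant takes up phosphate and ammonium and gives the fungus lipids and sugars. Each arbuscule lasts only days before the plant cell breaks it down, so a mycorrhizal root holds cells at every stage beside root cells without fungus.

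Levels are given as TPM, a length-corrected relative abundance of transcripts. It is the estimated count of a gene divided by its deposited length and scaled to the same total over all loci of every library, which lets levels be compared between genes. Replicate 1 held 19310625 estimated counts, replicate 2 held 19396774 and replicate 3 held 18199040. Of 51519 annotated genes, 20770 (40.3%) had a mean of at least 1 TPM, 19688 had at least 1 TPM in each of the 3 libraries, and 23911 had no count in any of them. Annotated genes took 97.1% to 97.3% of TPM, assembled loci that lie outside the annotation 1.99% to 2.24%, and RNA genes 0.654% to 0.791%. In replicates 1, 2 and 3, respectively, 1234, 1212 and 1278 genes supplied 50% of the TPM of annotated genes, and 72, 74 and 70 genes were at or above 1000 TPM. Some deposited counts are not whole numbers, as programs give that divide reads between near-identical copies. A gene with any such count in any library is called shared below, and its level is uncertain. The counting program is not known, so the division of reads is inferred, and how many reads were divided was not measured.

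The tissue labels were checked against defining markers. All 15 loci of a list of arbuscule markers, chosen with earlier results of these data known, were above 1 TPM on average, led by the arbuscule transcription factor MYB1 and the phosphate transporter PT4. The 12 leghemoglobins, the oxygen carriers of root nodules, summed to 9.87, 21.6 and 8.08 TPM in replicates 1, 2 and 3, and 8 of them had no count. Of 613 nodule cysteine-rich peptides, which act on nodule bacteria, 590 had no count and the list summed to 606, 604 and 784 TPM. A mean of at least 5 TPM was found for 7, of which the most abundant, the shared MTR_7g021640 at 364, 373 and 510.3 TPM, has a chitinase-like protein as its closest Swiss-Prot entry. The 25 seed storage proteins summed to 4.48, 5.56 and 6.40 TPM. The 145 genes of leaf photosynthesis summed to 595, 456 and 619 TPM, at most 0.0619% of a library. Most nodule markers thus had no count and seed storage sums were low. The leaf and nodule peptide lists were similar in sum and were not absent, and the leghemoglobin MTR_1g090820, with 9.50, 18.9 and 6.10 TPM, was above the lowest arbuscule marker.

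The most abundant annotated gene was MTR_3g436100, which is named leginsulin and belongs to the albumin-1 family of small cysteine-rich peptides. It stood at 5356, 3682 and 2891 TPM in replicates 1, 2 and 3, was highest in replicate 1 and is shared. Next came a gene of growth and a gene of protein folding. The translationally controlled tumor protein gene MTR_2g436620, a conserved regulator of growth, had 3311, 3594 and 3312 TPM, and MTR_4g075290, which encodes a cyclophilin that helps proteins fold, had 2802, 3361 and 3515 TPM. The metallothionein gene MTR_4g021730, whose product binds copper and zinc, had 3249.5, 2994 and 2171 TPM. The libraries lay close together for the tumor protein, while the metallothionein was lowest in replicate 3.

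Water channels held 4 of the 20 highest places. The TIP-type aquaporin MTR_7g103030, of the vacuole membrane, had 2795, 1805 and 3322 TPM. Of the PIP type, found in the plasma membrane, MTR_3g070210 had 2729.7, 2145 and 3027 TPM. In the same order, MTR_4g059390 had 2116, 1749.5 and 3421 TPM and MTR_5g082070 had 1811, 1126 and 2722 TPM. For all 4 genes replicate 3 was highest and replicate 2 lowest, and MTR_3g070210 and MTR_4g059390 are shared.

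Carbon metabolism, translation and the cell wall supplied most of the other top genes. Sucrose synthase (MTR_4g124660), which splits the sucrose that reaches the root, had 2962, 2219 and 1821 TPM, was highest in replicate 1 and is shared. The glycolytic enzymes fructose-bisphosphate aldolase (MTR_5g069055) and glyceraldehyde-3-phosphate dehydrogenase (MTR_4g103920) had 2044 ± 64.2 and 1804 ± 99.5 TPM. Both elongation factor 1-alpha genes, MTR_6g021800 with 2428 ± 227 TPM and MTR_6g021805 with 2097 ± 122 TPM, carry transfer RNA to the ribosome and are shared. These 4 genes differed little between libraries, with the highest at most 1.17-fold above the lowest. Methionine synthase (MTR_7g086300), with 2186 ± 93.8 TPM, and the copper-zinc superoxide dismutase MTR_7g114240, with 2085 ± 169.5 TPM, spread by 1.09-fold and 1.18-fold. The proline-rich cell wall protein MTR_4g029600 stood at 1870.3, 2578 and 2515 TPM and the secreted peroxidase MTR_6g043240 at 1469.5, 2036 and 2025 TPM, both lowest in replicate 1. The MLP-like gene MTR_8g045560, of the Bet v 1 fold shared with pathogenesis-related proteins, stood at 1459, 2013 and 2681 TPM, highest in replicate 3 and lowest in replicate 1. The gene MTR_1g116947, described as like the pollen protein Ole e I, had 2336, 2112 and 3082 TPM, highest in replicate 3. It, aldolase, methionine synthase, the proline-rich protein and the MLP-like gene are shared. The 20 genes together took 4.82%, 4.67% and 5.09% of TPM (4.86% ± 0.214). The 100 most abundant genes had a median length of 1145.5 bases, against 1697 for all genes with a mean of at least 5 TPM.

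**Figure D1:**
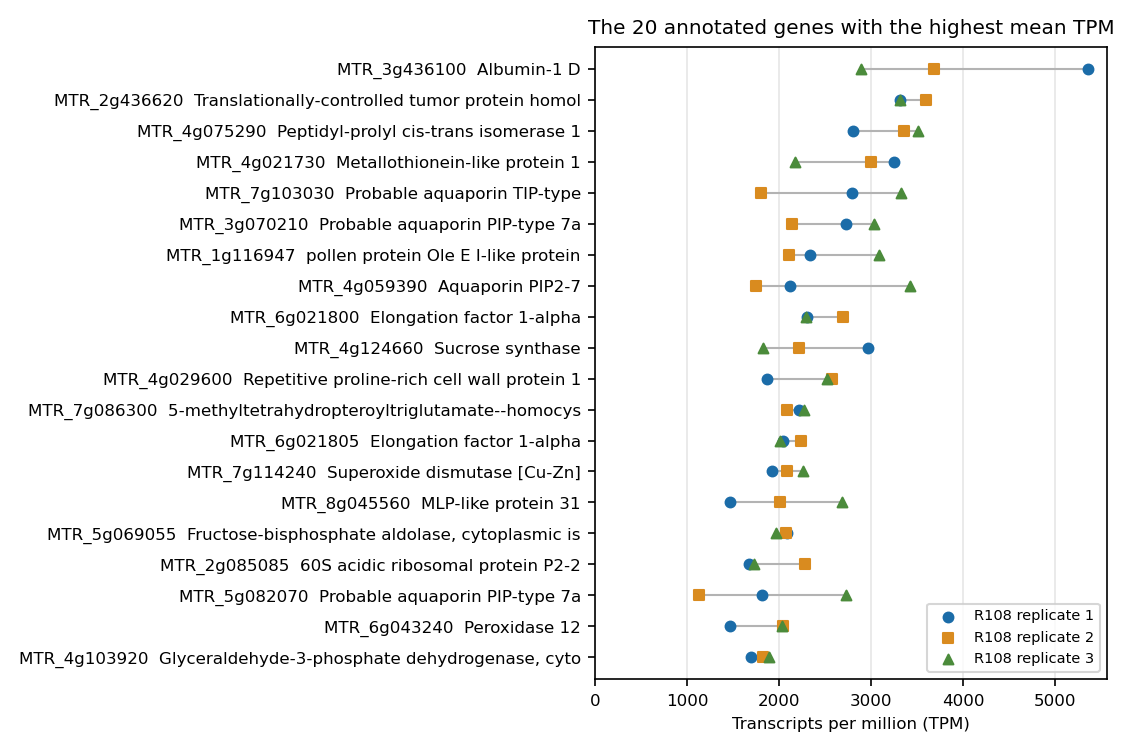
TPM of the 20 annotated genes with the highest means, with a point for each R108 replicate and a line from the lowest to the highest. The aquaporins and leginsulin span a wide range, while aldolase, methionine synthase and the tumor protein lie within 1.09-fold.

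Genes were sorted into 39 function classes by words in the deposited description and closest Swiss-Prot entry, each gene in the first class it matched. Another 33.8% ± 0.294 of TPM lay in genes with a description that matched no class and 4.61% ± 0.151 in genes with no functional description. Cytosolic ribosomal proteins were the largest class, with 8.39, 10.5 and 8.56% of TPM in replicates 1, 2 and 3. Replicate 2 was the highest, and 237 of the 267 members at a mean of at least 5 TPM were highest there, against 28.8% of all measured genes. Ribosomal protein genes are short, and without the length correction the share of the class was 5.59%, still the largest. The P2 protein of the ribosomal stalk (MTR_2g085085) stood at 1674, 2284 and 1726 TPM and the small-subunit protein S19 (MTR_3g013635) at 1671, 2062 and 1674 TPM.

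Regulatory and protein-turnover genes came next. Transcription factors took 3.86, 3.77 and 3.96% and ubiquitin and proteasome genes 3.78, 3.70 and 3.92%, and the highest library was 1.05-fold and 1.06-fold above the lowest. Each of these classes is large, with 2439 and 2684 annotated members, of which 984 and 813 had a mean of at least 5 TPM. MYB1 (MTR_7g068600) was the most abundant transcription factor at 2053, 932 and 558 TPM. Behind it stood 2 genes close to MYB48, MTR_2g096380 at 824, 972 and 1254 TPM and MTR_4g063100 at 544, 620.4 and 873 TPM. MYB1 was lowest in replicate 3, where both MYB48-like genes were highest. Polyubiquitin (MTR_8g018230), which is shared, stood at 1058 ± 120.4 TPM.

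Membrane transporters took 3.03, 2.69 and 2.57% of TPM. Their most abundant member was MTR_1g030580, of the nodulin MtN21/EamA transporter family, at 988, 1072 and 1505 TPM. PT4 (MTR_1g028600), the phosphate transporter of the membrane around the arbuscule, followed at 1485, 737 and 375 TPM. The plasma membrane proton pump MTR_4g127710, which energises uptake, stood at 767, 629 and 708 TPM. PT4 was highest in replicate 1 and MTR_1g030580 in replicate 3, and MTR_4g127710 is shared. As the class was matched by words, it also holds the shared MTR_1g068945, described as a Sec24-like transporter of proteins. That gene, at 17.1, 2.39 and 0 TPM, had the widest spread among members with a mean of at least 5 TPM.

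Aquaporins took 1.32, 0.961 and 1.66% of TPM, and 19 of their 28 members with a mean of at least 5 TPM were highest in replicate 3, as were 45.0% of all measured genes. Cell wall proteins and enzymes took 2.17, 2.35 and 2.63% and class III peroxidases, some of which crosslink wall polymers, took 0.911, 0.984 and 1.18%, both lowest in replicate 1 and highest in replicate 3. Chaperones took 2.24, 2.55 and 2.50%, led after cyclophilin by the shared HSP70 gene MTR_7g099680 at 1566 ± 78.7 TPM and calreticulin (MTR_1g083960) at 1170.1 ± 127 TPM. Glycolysis, fermentation and sucrose cleavage took 2.03, 2.04 and 1.88% and respiration 1.90, 1.998 and 2.08%. Histones took 0.795, 1.01 and 0.958%, and of 75 members above the 5 TPM filter 0 were highest in replicate 1, against 26.2% of all measured genes.

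Some smaller classes differed more between libraries. Protease inhibitors took 1.27, 0.545 and 0.504% of TPM in replicates 1, 2 and 3, 2.51-fold between the highest and lowest library. Germin-like proteins, secreted cell wall proteins of the cupin fold, took 0.564, 0.390 and 0.210%, a 2.68-fold range. Nitrogen assimilation took 0.662, 0.659 and 0.482%, where the asparagine synthetase MTR_5g071360, which is shared, stood at 1432, 1621 and 788 TPM and cytosolic glutamine synthetase (MTR_3g065250) at 869, 754 and 495 TPM, both lowest in replicate 3. Metallothioneins took 0.704, 0.686 and 0.441% from 5 genes.

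**Figure D2:**
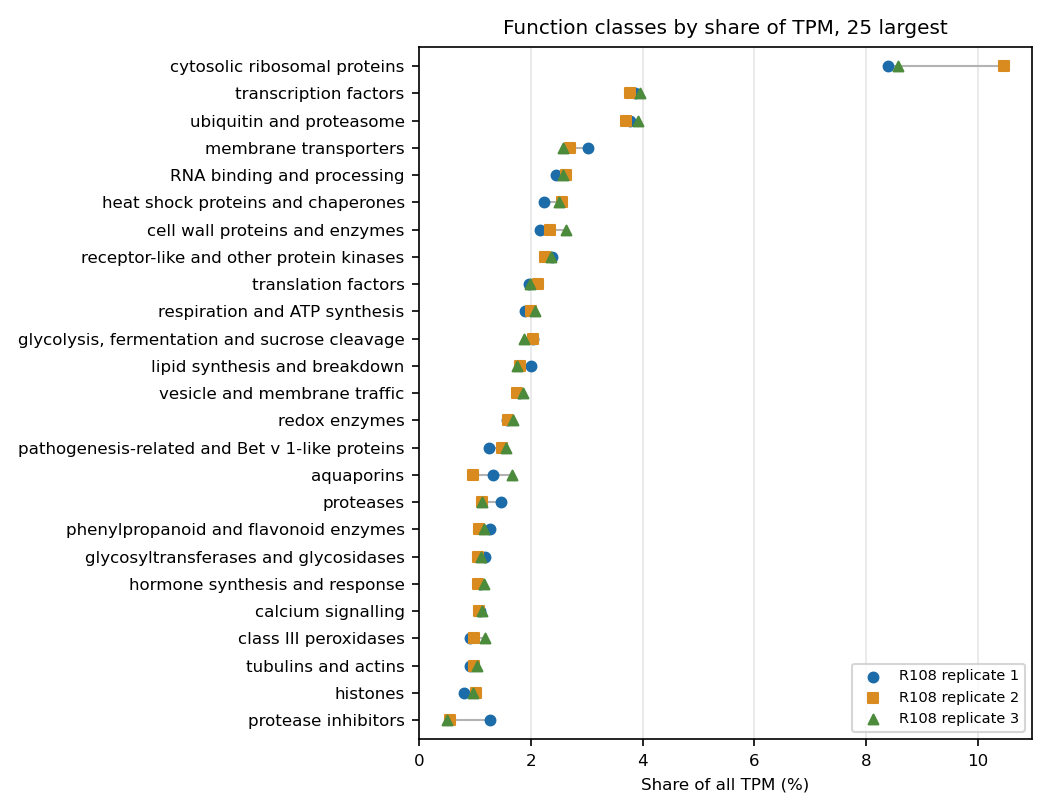
Share of all TPM, in percent, of the 25 largest function classes, with a point for each R108 replicate. Cytosolic ribosomal proteins stand apart from the rest and are highest in replicate 2, and aquaporins are highest in replicate 3.

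The spread among the libraries was measured for each gene as the level in the highest library over that in the lowest, on TPM + 1, in the 16252 annotated genes with a mean of at least 5 TPM. On this scale the change of a low gene is understated. The median gene had a highest library 1.26-fold above the lowest, and 90% of genes lay under 1.97-fold. A spread of at least 2-fold was found for 1574 genes (9.68%) and of at least 4-fold for 435 genes (2.68%). With 1 library left out the latter count was 96 without replicate 1, 378 without replicate 2 and 112 without replicate 3. The median coefficient of variation was 12.6%, against 4.50% from counting alone, over all measured genes. What edgeR names the common biological coefficient of variation was 0.270, estimated over 21101 loci of all kinds. Here it is the spread between these libraries beyond counting, and it is not known to be biological.

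Most of the wide spread lay between replicates 1 and 3. These differed at least 4-fold in 371 genes (2.28%), of which 356 were higher in replicate 1 and 15 in replicate 3. Replicates 1 and 2 differed that far in 100 genes (0.615%) and replicates 2 and 3 in 94 (0.578%). Of the 435 genes, 362 (83.2%, or 2.23% of all measured genes) were highest in replicate 1 and 365 (83.9%, or 2.25%) lowest in replicate 3, where over all 16252 genes 26.2% were highest in replicate 1 and 24.3% lowest in replicate 3. The median gene moved little, by 1.14-fold to 1.16-fold either way between any pair, and replicate 3 was the highest library for 45.0% of all genes. The median log2 ratio of replicate 1 to replicate 3 was -0.0941. Which library was highest was counted on TPM alone and not recounted with another scaling, so these shares may hold a small offset. The total counts, the shares of RNA genes and the other values of depth given above differed by little between the libraries, and their part in the spread was not tested.

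**Figure D3:**
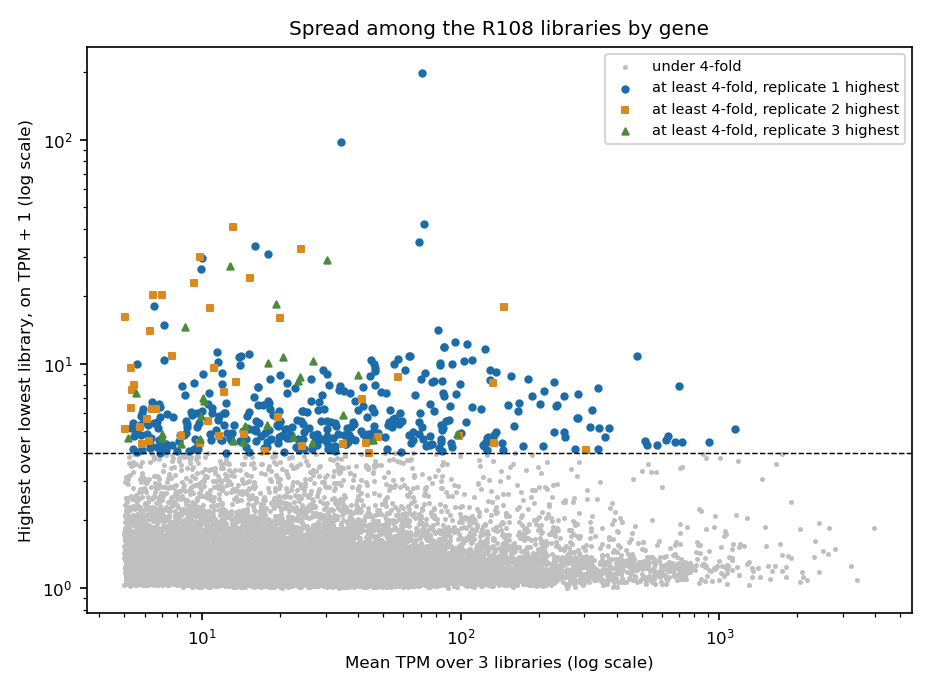
Highest over lowest R108 library on TPM + 1 against mean TPM, both on log scales, for 16252 annotated genes, with the dashed line at 4-fold. Of the 435 genes above the line, 362 are highest in replicate 1.

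The 435 genes fell into a few shapes, with a step of 2-fold as the border between adjacent libraries. In 183 (42.1%) only replicate 3 was low, in 104 (23.9%) replicate 1 was highest, replicate 2 intermediate and replicate 3 lowest, and in 78 (17.9%) only replicate 1 was high. The next shape, with only replicate 2 high, held 19. Wide spread was not restricted to low genes. Of 1901 genes with a mean of at least 100 TPM, 66 (3.47%) passed 4-fold, although of the 73 genes at 1000 TPM or more only 1 did. Genes called shared made up 38.9% of the 435 (169 genes) and 20.2% of all genes above the filter. Among the 12977 genes with whole counts in every library, 266 (2.05%) passed 4-fold.

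Functions were unevenly represented among the 435. No member passed 4-fold among 267 cytosolic ribosomal proteins, 290 chaperones, 118 genes of glycolysis, 115 translation factors or 75 histones. Among ubiquitin and proteasome genes 8 of 813 (0.984%) did. For transcription factors it was 29 of 984 (2.95%), close to the 2.68% of all genes. Shares further above 2.68% were found for membrane transporters with 40 of 653 (6.13%), cytochrome P450s with 12 of 127 (9.45%) and proteases with 27 of 165 (16.4%). Higher still were protease inhibitors with 10 of 40 (25%), germin-like proteins with 9 of 23 (39.1%) and lectins with 9 of 20 (45.0%). Without replicate 1 the counts were 8 transporters, 0 P450s, 7 proteases, 1 protease inhibitor, 3 germin-like proteins and 1 lectin, and without replicate 3 they were 3, 0, 13, 2, 0 and 1. Many proteins of the last 3 classes are secreted. Other classes above 2.68% included blue copper and nodulin-like proteins (8 of 36, 22.2%), chitinases and glucanases (9 of 62, 14.5%) and glutathione S-transferases (5 of 53, 9.43%). Pathogenesis-related and Bet v 1-like proteins, with 10 of 79 (12.7%), followed replicate 1 less. Of these 10, 6 were highest in replicate 2, 3 in replicate 1 and 1 in replicate 3, and without replicate 1 the count was 8. The families below were drawn up after the values were seen, so their counts are given as descriptions of these libraries.

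**Figure D4:**
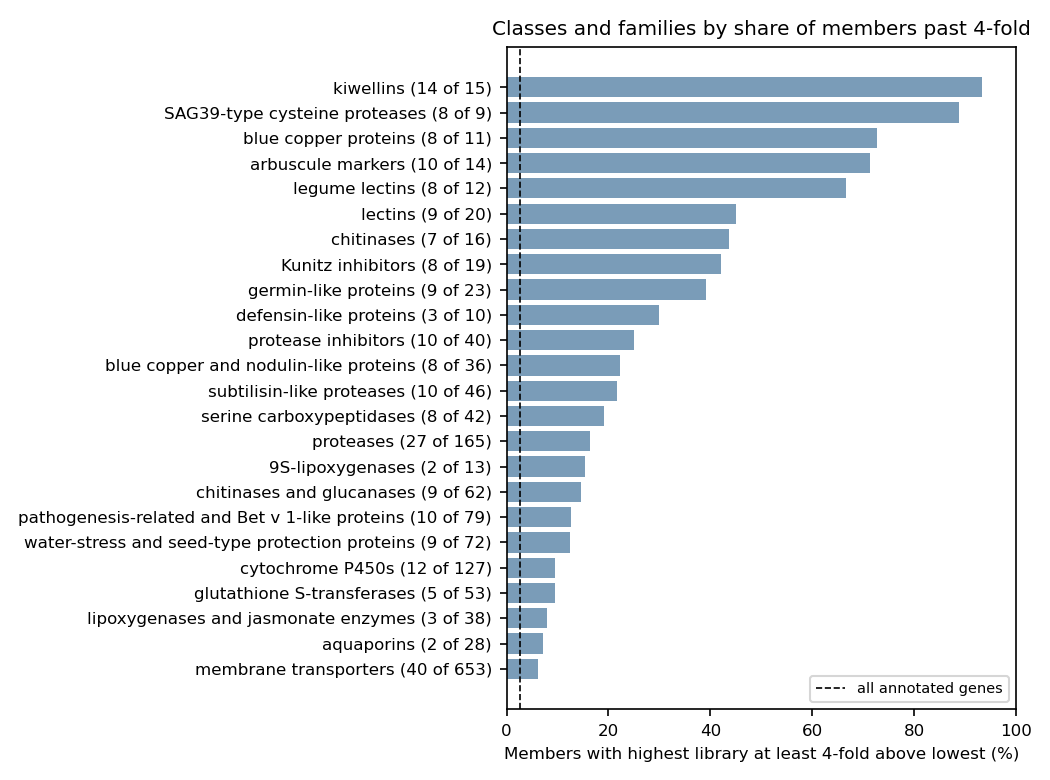
Share of members, in percent, whose highest R108 library was at least 4-fold above the lowest, for classes and families, with called and measured members in brackets. The dashed line is the 2.68% of all annotated genes, and kiwellins, SAG39-type proteases, blue copper proteins and arbuscule markers stand far to its right.

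The arbuscule markers differed together. Summed over the 15 loci they took 5329, 2487 and 1266 TPM in replicates 1, 2 and 3, a 4.21-fold range. All 14 markers with a mean of at least 5 TPM were highest in replicate 1 and lowest in replicate 3. Their spreads ran from 3.11-fold to 11.9-fold with a median of 4.77, and 10 of the 14 passed 4-fold. The widest was that of the shared blue copper gene MTR_7g086190, followed by the proton pump HA1 at 6.58-fold. Of these 14, 1 passed without replicate 1 and 0 without replicate 3. In bulk roots, fewer arbuscule cells and less RNA per such cell cannot be told apart. MYB1 (2053, 932 and 558 TPM), a factor of arbuscule breakdown, and PT4 (1485, 737 and 375 TPM) spread by 3.68-fold and 3.95-fold, just under the threshold.

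Markers of every arbuscule function on the list had replicate 1 highest and replicate 3 lowest. The proton pump HA1 (MTR_8g006790), which drives uptake across the membrane around the arbuscule, stood at 463, 171 and 69.5 TPM. Lipid supply was represented by RAM2 (MTR_1g040500), an acyltransferase, at 315, 168 and 79.6 TPM, and by the thioesterase gene MTR_1g109110 at 134, 69.0 and 29.7 TPM. In each of these genes replicate 1 was at least 3-fold above replicate 3. The ABC transporters STR (MTR_8g107450) and STR2 (MTR_5g030910), which work as a pair and are needed for arbuscule growth, stood at 129.8, 57.6 and 24.1 and 108.1, 46.2 and 19.3 TPM. Of the regulators, RAM1 (MTR_7g027190) stood at 126, 67.0 and 28.3 TPM and RAD1 (MTR_4g104020) at 47.4, 27.8 and 14.6 TPM. Both are GRAS factors, and RAM1 is needed for arbuscule branching. VAPYRIN (MTR_6g027840), which fungal entry requires, had 155, 69.0 and 28.3 TPM, and the sugar transporter SWEET1 gene MTR_3g089125 had 47.7, 18.1 and 6.88 TPM. The ammonium transporter AMT2;3 (MTR_8g074750) was the lowest marker, at 5.89, 2.36 and 0.501 TPM with 8 estimated counts in replicate 3. All the markers given here by value had whole counts. Of the 14 measured markers only MTR_7g086190 is shared.

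Blue copper proteins, secreted electron carriers of which BCP1 is an arbuscule marker, showed replicate 3 low. Of 11 measured members 8 passed 4-fold, and their sum was 2623, 1640.0 and 584 TPM. The most abundant, MTR_7g086230, had 888, 469 and 81.1 TPM, and MTR_7g086220 had 410.4, 231 and 48.6 TPM. In contrast the blue copper-like gene MTR_6g013420 had 233, 246 and 274 TPM. The first 2, both shared, were high in replicates 1 and 2 and low in replicate 3, and the last was nearly level. Of the 11, 7 passed without replicate 1 and 0 without replicate 3. MTR_7g086190 is counted both here and among the arbuscule markers.

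Legume lectins, sugar-binding proteins of which several are known to rise in mycorrhizal roots, passed 4-fold in 8 of 12 measured members. Lectin 7 (MTR_8g068030) had 507, 277 and 68.1 TPM, Lectin 6 (MTR_5g031100) 499, 263 and 86.0 TPM and Lectin 9 (MTR_5g031120) 387, 193 and 50.2 TPM. All 3 are shared, and all 3 were highest in replicate 1 and lowest in replicate 3. The most abundant lectin, MTR_3g054180, also shared, was highest in replicate 3, at 1474, 1692 and 2067 TPM. Of the 12, 1 passed without replicate 1 and 0 without replicate 3.

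Serine carboxypeptidases, which cut residues from protein ends or act as acyltransferases, passed 4-fold in 8 of 42 members, of which 6 lie in a run on chromosome 3. The most abundant, MTR_3g079590, had 1223, 725 and 153 TPM, with replicates 1 and 2 high and replicate 3 low. Its neighbours MTR_3g079600 and MTR_3g079630 had 363, 191 and 54.1 and 192, 78.9 and 14.4 TPM. These genes are shared, and of the 42 members 5 passed without replicate 1 and 1 without replicate 3. Germin-like proteins showed a similar pattern, with 1561, 816 and 346 TPM for MTR_2g086630, 983, 664 and 215 TPM for MTR_4g052780 and 163, 70.3 and 10.6 TPM for MTR_2g030855, all shared. By contrast MTR_1g079490, of germin subfamily 1, had 602, 811 and 722 TPM and was lowest in replicate 1.

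In another set of families replicate 1 alone was high in most members that passed 4-fold. Kiwellins, small secreted cysteine-rich proteins, passed 4-fold in 14 of 15 members, and their sum was 1397, 268 and 187 TPM. All 15 were highest in replicate 1. Of the 14, replicate 1 alone was high in 11 and replicate 3 alone was low in 2, while 1 was graded from replicate 1 to replicate 3. The kiwellin genes MTR_7g012350 and MTR_7g076990 had 238, 28.3 and 30.6 and 231, 24.1 and 22.3 TPM and are shared. The next most abundant, the shared MTR_4g036290, had 174, 57.9 and 30.6 TPM. SAG39-type cysteine proteases, papain-like enzymes named for leaf senescence, passed in 8 of 9 members, with a sum of 1348, 146 and 135 TPM. The 3 most abundant had 316, 26.3 and 30.8 TPM (MTR_5g022560), 280.3, 26.2 and 26.4 TPM (MTR_4g107930) and 274, 21.4 and 21.9 TPM (MTR_4g047610). Replicates 2 and 3 were near equal for all 3, replicate 1 was 10.4-fold to 12.3-fold above the lowest library, and all 3 are shared. Without replicate 1, 0 kiwellins and 0 SAG39-type proteases passed, and without replicate 3, 9 and 8 did.

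Kunitz inhibitors, which block serine proteases and of which some are known to be induced in mycorrhizal roots, had a sum far higher in replicate 1 than in the others. It was 10891, 3974 and 3567 TPM, and 8 of 19 measured members passed 4-fold. Replicate 1 was the highest library in 11 of the 19, replicate 2 in 3 and replicate 3 in 5. The widest spread was in MTR_8g060550, at 0, 39.6 and 0 TPM, which is shared and was high in replicate 2 alone. The most abundant inhibitor, MTR_0100s0150, had 3407, 969 and 857 TPM and MTR_3g014820 had 2376, 601 and 465 TPM, and MTR_3g014820 was the single gene with a mean of at least 1000 TPM that passed 4-fold. Both abundant inhibitors are shared, and 1 of the 19 passed without replicate 1 and 2 without replicate 3. Chitinases, which cut the chitin of fungal walls, passed in 7 of 16 members and summed to 1224, 535 and 325 TPM. MTR_0002s1060, a chitinase of glycoside hydrolase family 18 with whole counts, had 198, 3.74 and 14.97 TPM, and MTR_6g079630 had 160.0, 13.8 and 16.3 TPM. Replicate 1 stood alone in both, but the shared endochitinase MTR_8g074335 was intermediate in replicate 2, at 218, 124 and 47.3 TPM. Of the 16 chitinases, 1 passed without replicate 1 and 5 without replicate 3. Outside these families, MTR_6g043700 had 142, 16.2 and 12.6 TPM. It is described as an alginate lyase, while its closest Swiss-Prot entry is a citrate-binding protein.

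Other genes of transport and signalling were also highest in replicate 1. The aquaporin MTR_5g063930, close to the Nodulin-26 water and solute channel of the nodule membrane, had 149, 85.2 and 14.1 TPM, where the abundant aquaporins were highest in replicate 3. The GRAS gene MTR_1g069725, closest to SCARECROW, had 30.3, 13.6 and 1.82 TPM, and the tubulin gene MTR_8g107250 313, 144 and 46.2 TPM, while the other tubulins and actins included no gene past 4-fold. The nitrate and peptide transporter family gene MTR_4g123537 had 28.1, 11.9 and 1.71 TPM. Each of these was lowest in replicate 3. The same was seen in more abundant genes. The organ-specific protein MTR_3g107810 had 2656, 1568 and 745 TPM, the shared defensin-like gene MTR_8g012805 1674, 907 and 439.7 TPM and the glutathione S-transferase MTR_5g076900 1169.9, 727 and 260.1 TPM.

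**Figure D5:**
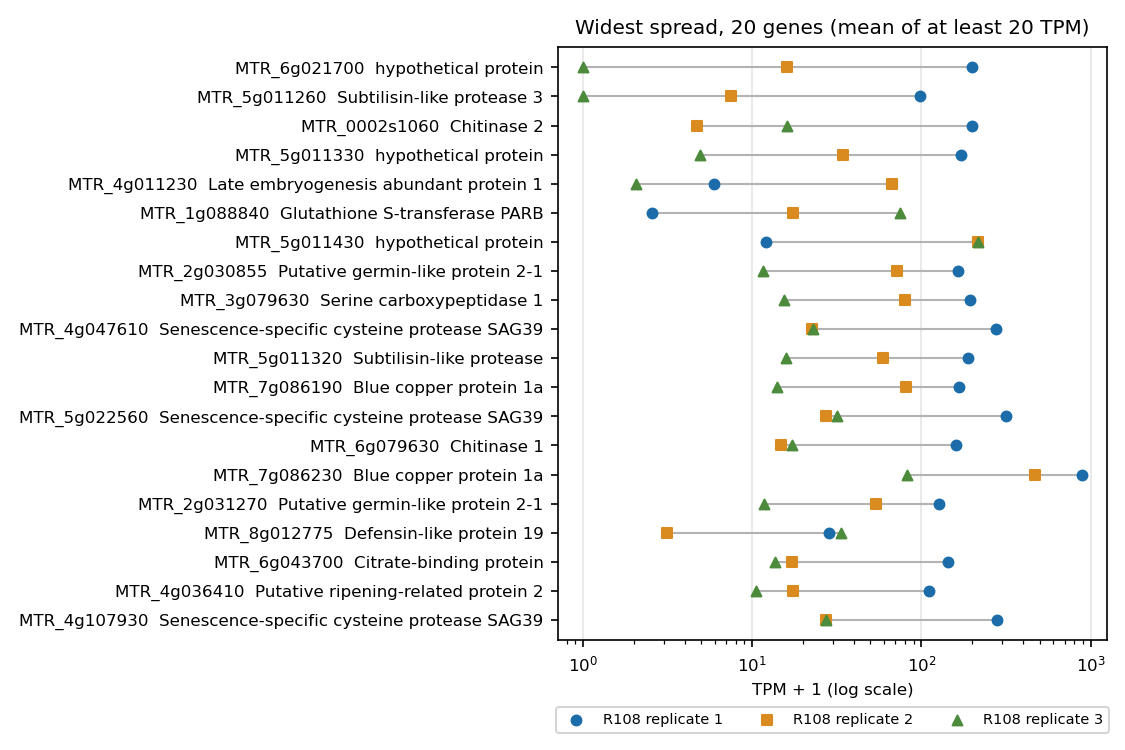
TPM + 1 on a log axis for the 20 genes with the widest spread among those with a mean of at least 20 TPM, with a point for each R108 replicate. Replicate 1 is the highest point in 16 of the 20.

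The widest spread of all was in genes listed at 0 in a library. MTR_6g021700, a gene of 321 bases with no functional description, had 198, 14.97 and 0 TPM in replicates 1, 2 and 3, and the subtilisin-like protease gene MTR_5g011260 had 96.5, 6.45 and 0 TPM. Both are shared, so these levels are uncertain. Of the 435 genes, 15 were listed at 0 in at least 1 library. The region of MTR_5g011260 also held genes that differed in which library was high: MTR_5g011330 had 170.0, 33.4 and 3.89 TPM and MTR_5g011430 11.1, 216 and 214 TPM, so replicate 1 was high for the former and low for the latter, and both are shared. Similarly, of the neighbouring glutathione S-transferase genes, both shared, MTR_1g088825 had 32.5, 15.6 and 0 TPM and MTR_1g088840 had 1.57, 16.4 and 73.4 TPM. Replicate 3 was the lowest library for the former and the highest for the latter.

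Genes of wide spread often lay side by side. Of the 422 that are numbered on a chromosome, 115 (27.3%) had another within 5 loci, against 8.55% of 15948 measured genes. Shares per chromosome ran from 2.16% to 3.68%. The longest run, from MTR_7g086090 to MTR_7g086230, held 8 genes over 14 loci, with spreads of 7.15-fold to 11.9-fold. All but 1 are blue copper proteins, and the other, MTR_7g086150, is an SPX-domain gene of the vacuolar phosphate transporter family with 136, 84.2 and 15.3 TPM. The shared blue copper gene MTR_7g086190 in it, also on the arbuscule marker list, had 165, 79.7 and 13.01 TPM. The runs were picked out after their values were seen. There were 2 runs of 6. The first, from MTR_3g079560 to MTR_3g079630, held serine carboxypeptidases over 7 loci, with spreads of 6.61-fold to 12.6-fold. The other, from MTR_5g011260 to MTR_5g011360, held subtilisin-like proteases and hypothetical genes over 11 loci, with spreads of 4.94-fold to 97.5-fold, and its shared protease gene MTR_5g011320 had 186, 57.9 and 14.8 TPM. Runs of 5 were found for lectins from MTR_5g031030 to MTR_5g031160, at 4.97-fold to 7.57-fold, and for kiwellins from MTR_7g076920 to MTR_7g077000, at 6.18-fold to 10.2-fold. Every gene of wide spread in these 5 runs was highest in replicate 1. Outside them, the shared kiwellin gene MTR_4g036410 had 109, 16.5 and 9.54 TPM and the shared rhicadhesin receptor gene MTR_2g031270 had 126, 53.0 and 10.7 TPM. Neighbouring copies of a family share sequence and so may share reads, and they are not independent of each other.

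A smaller number of genes had another library on top. Replicate 2 was highest in 45 of the 435 (0.277% of all measured genes). The late embryogenesis abundant gene MTR_4g011230, of a family that protects cells in drying, had 4.92, 66.2 and 1.07 TPM, and the dehydrin gene MTR_6g084640, of the same kind of role, had 1.07, 20.8 and 1.01 TPM. The antimicrobial peptide gene MTR_4g106860, closest to Snakin-2, had 29.7, 252 and 119 TPM, and the EF-hand gene MTR_1g019640 11.2, 83.7 and 29.5 TPM. Replicate 2 was highest in all 4, by at least 2-fold over the next library, and MTR_4g011230 and MTR_1g019640 are shared. The more abundant dehydrin gene MTR_7g086340 had 364, 284 and 263 TPM and was highest in replicate 1. In the class of water-stress and seed-type protection proteins, which holds these genes, 9 of 72 measured members passed 4-fold. Of the 9, 5 were highest in replicate 1, 3 in replicate 2 and 1 in replicate 3.

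Replicate 3 was highest in 28 (0.172%). Over all measured genes, replicate 3 was the highest library for 45.0% on TPM, a share not recounted with another scaling. Casparian strip membrane proteins, which build the barrier in the wall of endodermal cells, were the marker list in which every measured member was highest there. Their 7 genes summed to 249, 179.8 and 556 TPM, 3.09-fold higher in replicate 3 than in replicate 2, and 1 of the 6 measured members passed 4-fold. MTR_4g081880 had 142, 119 and 339.6 TPM and MTR_2g086740 21.3, 10.1 and 48.2 TPM. The dirigent gene MTR_4g062470, of a family that guides lignan and lignin coupling, had 39.3, 7.39 and 73.7 TPM, and the xyloglucan endotransglucosylase gene MTR_8g102220, which remodels walls, had 27.8, 3.78 and 38.9 TPM. In both, which are shared, replicate 2 was low and the others were not. The defensin-like gene MTR_8g012775, with whole counts, had 27.4, 2.12 and 32.3 TPM and was likewise low in replicate 2 alone.

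Markers of vascular tissue differed less in sum. Xylem markers, 33 genes for laccases, secondary-wall cellulose synthases and xylem proteases, summed to 550.3, 663 and 624 TPM, and phloem markers, 54 genes for sieve element occlusion and phloem proteins, summed to 600.4, 797 and 737 TPM. Both sums were highest in replicate 2 and lowest in replicate 1. The sieve element occlusion gene MTR_1g075170 had 18.2, 65.9 and 47.4 TPM, lowest in replicate 1. Single members differed in which library was high. The most abundant gene of the xylem list, the laccase gene MTR_7g065980, had 204, 126 and 103 TPM. It was highest in replicate 1 and lowest in replicate 3 like the arbuscule markers, against the order of the xylem sum that includes it. Another laccase gene of the list, MTR_5g073210, had 47.0, 36.1 and 102 TPM and was highest in replicate 3. Whether these laccase genes mark xylem in these roots was not tested. Of the measured members, 1 of 19 xylem and 4 of 23 phloem genes were highest in replicate 1, against 26.2% of all measured genes. The part of tissue composition in the spread was not tested.

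At the other end, some genes hardly differed. The translation initiation factor gene eIF5 (MTR_7g082940) had 257, 258 and 258 TPM in replicates 1, 2 and 3, and the proteasome subunit gene MTR_8g092450 113, 113 and 113 TPM. The mitochondrial processing peptidase MTR_7g053330 had 387 ± 1.69 TPM, alanine-tRNA ligase (MTR_4g074640) 159.8 ± 0.765 TPM and the La-related RNA-binding protein MTR_2g019620 401 ± 1.95 TPM. The 10 most even genes with a mean of at least 100 TPM also included a coatomer subunit (MTR_4g008250), a cyclin-dependent kinase (MTR_4g103810), a splicing factor (MTR_3g108770), a UDP-apiose/xylose synthase (MTR_4g056100) and a ubiquitin-associated domain protein (MTR_8g085380), all within 1.02-fold. The proteasome, ligase, coatomer and splicing genes are shared. In all 10 the coefficient of variation was below that from counting alone, 0.102% against 1.04% for eIF5, so their order is not resolved at this depth.

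Loci outside the annotation held some of the highest levels. The assembled locus MSTRG.2899, with no description in the deposited table, had 5076, 6718 and 5755 TPM, above the mean of every annotated gene, and was highest in replicate 2. The next, MSTRG.8306 and MSTRG.8356, had 514, 711 and 610.4 and 438, 624 and 522 TPM, also highest in replicate 2, while MSTRG.8305 was highest in replicate 1, at 467, 369 and 330.2 TPM. MSTRG.21288, closest to an outer envelope pore protein of plastids, had 279, 302 and 316 TPM. Ribosomal RNA was still present: the small-subunit gene ENSRNA049474303 had 1510.1, 1313 and 1593 TPM and the large-subunit gene ENSRNA049474157 969, 923 and 1136 TPM, both shared, highest in replicate 3 and lowest in replicate 2. MSTRG.8306 and MSTRG.8305 are shared too.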

How the data were processed

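The table deposited by the authors holds estimated counts (expected counts, with 2 decimals) for 54762 loci, of which 51519 are annotated genes, 1915 assembled loci and 1328 RNA genes, with a length in bases for each. Of the values above 0 in a library, 78.7% to 79.5% were whole to within 0.005. HISAT2 and StringTie were used for alignment and assembly against genome version 4.0 of the species, per the labels' protocols, and the submitters' processing notes add DESeq2. Program versions, the counting program and its use of strand were not given in the sources used here, so genes that overlap or lie antisense to others cannot be told apart from them. The deposited length and other annotation columns were used as given by the authors. No sequences or coordinates were used.

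The 3 R108 columns were read through their titles. TPM was computed from counts and lengths over all loci. The spread of a gene is its highest over its lowest library on TPM with a pseudocount of 1, for annotated genes with a mean of at least 5 TPM, with sizes of 4-fold and 2-fold as thresholds. Beside it stand the error expected from counting and the common biological coefficient of variation from edgeR 4.0.16 in R 4.3.3, with data.table, at version 1.17.8, to read the file. Other scalings were edgeR's TMM and the size factors of DESeq2 1.42.0. Tables and figures were made in Python 3.11.15 with pandas 2.3.3, numpy 2.4.6 and matplotlib 3.10.9. The spread calculation was tested on simulated data.

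The members, the 39 function classes and the 18 marker and family lists were chosen with earlier results of these data known, and several word patterns and all family lists were set after the values were seen. Genes in the text were drawn from the 20 most abundant, the 20 of widest spread at a mean of at least 20 TPM, the 10 most even at a mean of at least 100 TPM, up to 3 of highest level and 2 of widest spread per class or list, 5 assembled loci and 3 RNA genes. Arbuscule markers beyond these and the genes at the ends of runs were named after their values were seen. With 1 group and no contrast, no test was run. Depth was 18199040 to 19396774 counts per library, which gives the median measured gene a counting error of 4.50%.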

Additional observations from a re-analysis of the deposited data

How the results depend on the processing

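The number of annotated genes at a mean of at least 1 TPM stayed within 1.5 times of 20770 in all 7 alternatives. The 20 most abundant genes took 4.86% of TPM but 5.55% without length correction, and cytosolic ribosomal proteins 9.14% but 5.59%. The count of genes past 4-fold was 435. It was 459 with TMM and 467 with DESeq2 size factors, each holding 434 of the 435, and 482 and 507 with pseudocounts of 0.5 and 0.1. It was 566 at a mean of at least 1 TPM or with no filter and 250.0 at a mean of at least 20 TPM. Leaving out 1 library gave 96 to 378, with 96 without replicate 1, 378 without replicate 2 and 112 without replicate 3, where 2 libraries have less room to differ. In genes with whole counts alone, an alternative chosen after the data were seen, 266 passed 4-fold and 1095 passed 2-fold. The count past 2-fold, 1574, was 2461 at a mean of at least 1 TPM, 781 at a mean of at least 20 TPM, 2801 with no filter and 621 to 1099 with 1 library left out (834 without replicate 1, 621 without replicate 3). Membrane transporters past 4-fold were 40, but 24 at a mean of at least 20 TPM and 3 to 37 with 1 library left out (8 without replicate 1, 3 without replicate 3). Arbuscule markers past 4-fold were 10 of 14 in all libraries, 1 without replicate 1, 10 without replicate 2 and 0 without replicate 3. No paired analysis was possible because a single genotype was described and no test was run. Depth limits genes near 5 TPM most. The labels call the libraries technical replicates, so the spread cannot be assigned to plants, pools or handling.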
